A study of Mus musculus with 8 samples.

Results

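AU-rich mRNA decay regulators were followed through the response of mouse bone marrow neutrophils to R848, in wild-type (WT) cells and in cells of Padi4 knockout (KO) mice. The group held 8 genes, listed by name with earlier results of these data known. They were Zfp36, Zfp36l1, Zfp36l2, Zc3h12a, Rc3h1, Elavl1, Khsrp and Tia1, 8 of the 24421 genes in the count table. All 8 passed the low-count filter and were among the 12254 genes tested. Polyadenylated RNA was sequenced in 8 libraries, 2 for each of 4 groups: WT unstimulated, Padi4 KO unstimulated, WT with R848 and Padi4 KO with R848. R848 is a small-molecule agonist of Toll-like receptor 7 and was given at 1 µg/ml for 6 h. All neutrophils came from the bone marrow of 8-week-old C57BL/6 mice by magnetic isolation. The knockout mice carry a deletion of exon 1 of Padi4, which encodes the enzyme that converts peptidylarginine to citrulline. The titles of the unstimulated libraries read 0 h while the study's methods describe culture for 6 h, so the effects of R848 and of culture cannot be told apart. The study's methods state that samples were analyzed in duplicate, without saying whether the duplicates were separate mice. The labels do not say that the libraries of a group came from separate mice, so p-values measure the spread between these libraries, which may be technical.

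Many short-lived mRNAs of inflammation carry AU-rich elements in the 3′ untranslated region (UTR), overlapping copies of the pentamer ATTTA that serve as landing sites for RNA-binding proteins. Zfp36 (tristetraprolin, TTP) and its relatives Zfp36l1 and Zfp36l2 bind these elements through CCCH zinc fingers and bring in the CCR4-NOT deadenylase, which shortens the poly(A) tail and starts decay. Zc3h12a (Regnase-1) is an endonuclease that cuts stem-loops, and Rc3h1 (Roquin-1) binds stem-loops and recruits deadenylases. Khsrp (KSRP) promotes decay of AU-rich mRNAs, Elavl1 (HuR) stabilises them and Tia1 represses their translation. In stimulated myeloid cells p38 MAPK and its kinase target Mapkapk2 (MK2) phosphorylate TTP, which then binds 14-3-3 proteins and loses its grip on the deadenylase.

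The nonamer TTATTTATT, the preferred site of the TTP family, was searched on the transcript strand of 1 coding transcript per gene of GENCODE M21 on the GRCm38 build, with overlapping matches counted. It was present in the 3′ UTR of 5 of the 8 regulators, against 1508 of 20979 3′ UTRs of all genes, or 7.19%. The sites of the 3 family members and of Rc3h1 are shown, and the first of 3 Elavl1 stretches, which holds 4 of its nonamers, with 3 target transcripts of the same element for comparison, Cxcl2 by 1 of its 3 stretches. Capitals mark the nonamers, overlapping copies included.
Zfp36, chr7:28376956-28376974, minus strand: cgactTTATTTATTgtatt
Zfp36l1, chr12:80108172-80108190, minus strand: ttggaTTATTTATTttaga
Zfp36l2, chr17:84184919-84184937, minus strand: ttaacTTATTTATTatctt
Rc3h1, chr1:160970048-160970066, plus strand: actcaTTATTTATTgagat
Elavl1, chr8:4285782-4285810, minus strand: aaaaTTATTTATTTATTTATTTATTttta
Tnf, chr17:35199678-35199707, minus strand: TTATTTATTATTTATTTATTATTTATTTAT
Cxcl2, chr5:90905341-90905363, plus strand: tgtatTTATTTATTTATTaattc
Fos, chr12:85477108-85477126, plus strand: tcaatTTATTTATTaagat

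Zfp36, Zfp36l1, Zfp36l2 and Rc3h1 each held 1 nonamer. Elavl1 held 8 in a UTR of 4218 bases, and Tnf held 5 in 764 bases, of which the first 30 bases of the run are printed. UTR length differed, and so did the share of 3′ UTRs within 10% of the same length that held the nonamer. That share was 4.46% for Zfp36 (774 bases), 9.82% for Zfp36l1 (1835 bases), 9.90% for Zfp36l2 (1822 bases), 27.8% for Rc3h1 (7181 bases) and 19.5% for Elavl1. Zc3h12a, Khsrp and Tia1 had no nonamer in UTRs of 856, 1642 and 3038 bases, and 3, 1 and 8 copies of ATTTA. A match is a run of letters and was not tested for binding. The 8 genes lie at chr7:28376784-28380253 (Zfp36), chr12:80107754-80113013 (Zfp36l1), chr17:84183931-84187947 (Zfp36l2), chr4:125118423-125127840 (Zc3h12a), chr1:160906418-160974978 (Rc3h1), chr8:4285382-4325413 (Elavl1), chr17:57021051-57031522 (Khsrp) and chr6:86404219-86433405 (Tia1). Rc3h1 and Tia1 are on the plus strand and the other 6 on the minus strand.

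The count tables were shallow, with 562446 to 1177972 counts on genes per library, and 3 counts corresponded to between 2.55 and 5.33 counts per 1000000 (CPM). The Padi4 KO libraries were deeper than the WT libraries (716440 to 1177972 against 562446 to 668857). Padi4 itself was counted 590 and 527 times in unstimulated WT, 40 and 54 times in unstimulated Padi4 KO, 166 and 234 times in WT with R848 and 34 and 21 times in Padi4 KO with R848, in the order the labels give. Neutrophil markers (11 of the 12 listed were in the table) summed to 151535 to 157754 CPM in unstimulated WT, 123780 to 125320 in unstimulated Padi4 KO, 127335 to 141468 in WT with R848 and 102636 to 103287 in Padi4 KO with R848. A list of 12 erythroid markers summed to 88.9 to 119 CPM in unstimulated WT and 1056 to 1124 in unstimulated Padi4 KO, and to 32.9 to 63.9 and 1370 to 1392 CPM after R848, with the 4 hemoglobin genes at 0 in every library. The annotation used for counting is not given, so these zeros do not tell absent RNA from reads that were not counted. Monocyte markers summed to 1495 to 1613 CPM in unstimulated WT, 2219 to 2225 in unstimulated Padi4 KO, 3363 to 3499 in WT with R848 and 3571 to 3633 in Padi4 KO with R848. Stromal markers (8 genes) summed to 219 to 251, 596 to 749, 35.9 to 41.0 and 48.4 to 51.1 CPM in the same order, and 7 lymphocyte markers to at most 45.2 CPM, with Cd3e at 0. The part of these other cells in the results was not tested, and in bulk RNA fewer cells of a type and less RNA per cell cannot be told apart. Differences are log2 fold changes with standard errors (SE) from edgeR's quasi-likelihood test, adjusted by Benjamini-Hochberg over all genes tested, and calls were made where the false discovery rate was under 0.1. Of the 9 monocyte markers 3 were called higher and 4 lower with R848 in each genotype, although their sum was higher. Of all genes 13.5% were called higher and 16.0% lower in WT, and 19.2% and 15.9% in Padi4 KO.

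**Figure D1:**
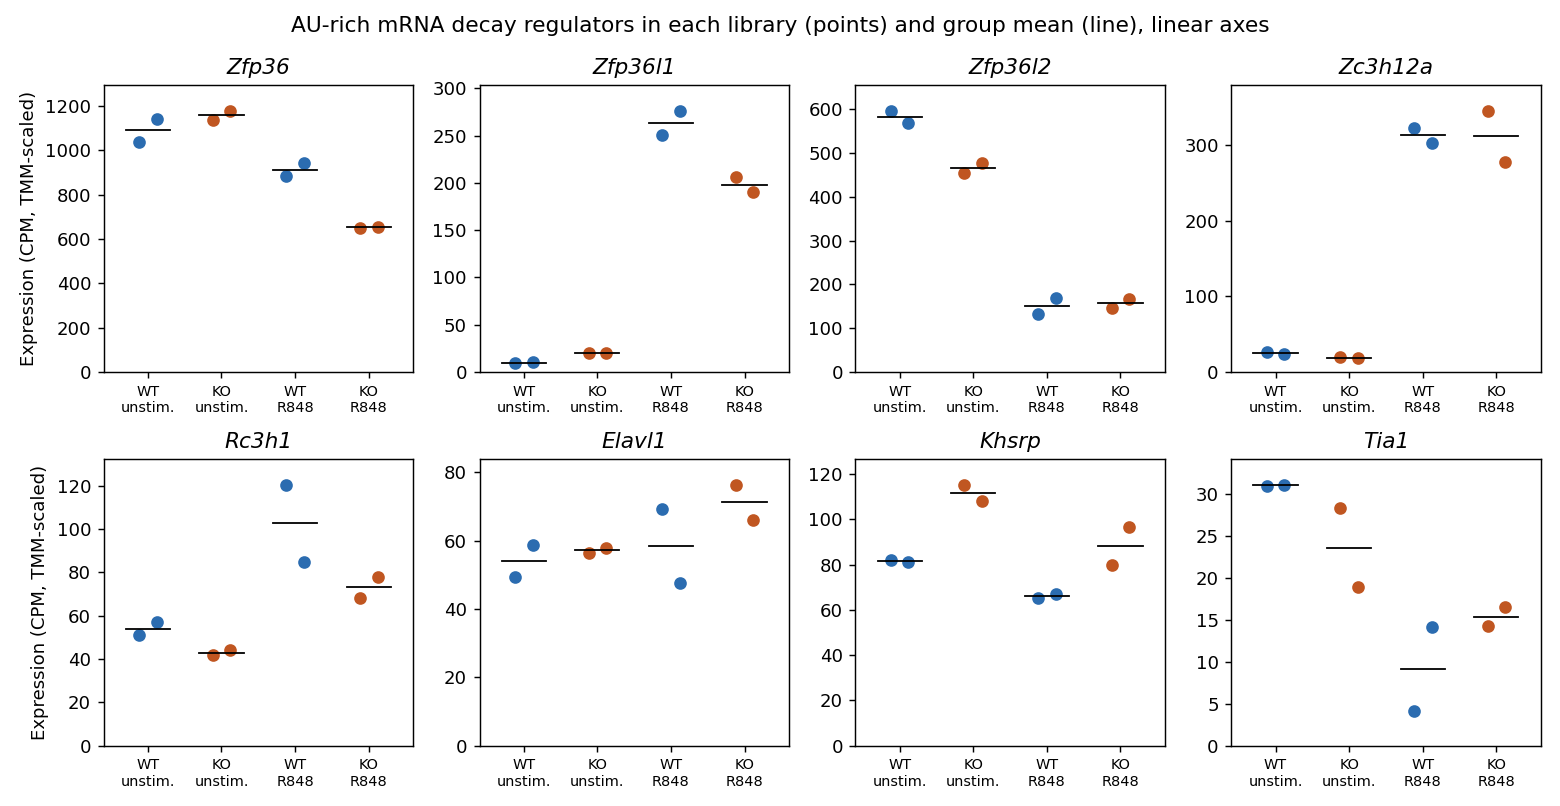
Expression of the 8 regulators in CPM scaled by the trimmed mean of M-values, on linear axes that start at 0, with 1 point per library and a line at the mean of each group of 2. Zfp36l1 and Zc3h12a were higher in every R848 library than in any unstimulated library, and Zfp36l2 was lower.

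In unstimulated neutrophils Zfp36 and Zfp36l2 were the most abundant regulators. With R848 Zfp36l2 was lower, and Zfp36l1 and Zc3h12a rose to levels above it. On the scale of CPM per kb of the chosen transcript, which allows levels to be compared between genes, Zfp36 stood at 391 ± 26.9 (SD, n = 2) in unstimulated WT cells and Zfp36l2 at 165 ± 5.56. Khsrp followed at 20.5 ± 0.16, then Elavl1 at 9.41 ± 1.13, Zc3h12a at 9.15 ± 0.55, Tia1 at 6.92 ± 0.020, Rc3h1 at 4.90 ± 0.38 and Zfp36l1 at 3.28 ± 0.25. The 2 libraries of Elavl1 and of Zc3h12a overlapped, and no other neighbours in this order did. After R848 the order in WT was Zfp36 at 327 ± 14.6, Zc3h12a at 113 ± 5.11, Zfp36l1 at 88.1 ± 5.91, Zfp36l2 at 42.9 ± 7.45, Khsrp at 16.7 ± 0.34, Elavl1 at 10.2 ± 2.66, Rc3h1 at 9.33 ± 2.28 and Tia1 at 2.04 ± 1.59. There Elavl1 and Rc3h1 overlapped. In Padi4 KO cells with R848 the order was the same, at 234, 113, 66.3, 44.3, 22.2, 12.4, 6.65 and 3.43.

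In WT neutrophils 6 of the 8 regulators were called in the R848 response, 3 higher and 3 lower, where 13.5% of all genes tested were called higher and 16.0% lower. In Padi4 KO neutrophils 6 were called as well, again 3 higher and 3 lower, against 19.2% and 15.9% of all genes. All 8 regulators averaged at least 10 counts per library, and among the 6912 genes that did so 45.3% were called in WT and 50.9% in Padi4 KO in either direction, so these counts stand beside a high background. A rule that also asks for more than a 2-fold change left 2 higher (Zfp36l1 and Zc3h12a) and 2 lower (Zfp36l2 and Tia1) in WT, against 7.18% and 10.8% of all genes, and 2 higher and 1 lower (Zfp36l2) in Padi4 KO, against 8.09% and 8.83%. Both responses share their scaling with all genes, whose median log2 fold change at 10 counts or more was -0.073 and 0.077. With libraries scaled by their totals alone these medians were -0.38 and -0.30. That scaling called 1075 genes higher and 3127 lower in WT, against 1659 and 1961 with the main scaling, and 1264 and 3820 against 2353 and 1945 in Padi4 KO. DESeq2 called 1285 higher and 979 lower in WT.

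Zfp36l1 showed the largest rise of the 8 in WT, and the second largest, after Zc3h12a, in Padi4 KO. It was counted 6 and 6 times in the unstimulated WT libraries and 123 and 156 times with R848, or 9.28 and 10.4 against 251 and 276 CPM. The unstimulated and stimulated libraries were far apart. The log2 fold change was 4.73 (SE 0.27, adjusted p = 2.10e-68 by edgeR), a 26.6-fold rise. In Padi4 KO cells it was counted 18 and 28 times without R848 and 232 and 207 times with it, or 20.3 and 20.3 against 206 and 190 CPM. The log2 fold change was 3.28 (SE 0.18, adjusted p = 1.83e-69 by edgeR), a 9.69-fold rise. On the other strand of Zfp36l1, 1672 of its 2990 exonic bases overlap Gm26669, a long non-coding gene. The library kit does not mark strand, so reads of both genes could not be told apart. Gm26669 has no row in the count table. Exons of Tia1 overlap those of Gm44790, a coding gene on the same strand, over 352 bases. Exons of Elavl1, Zfp36, Zfp36l2 and Khsrp overlap genes on the other strand over 204, 125, 105 and 63 bases.

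Zc3h12a, the Regnase-1 gene, rose as well. The unstimulated WT libraries held 17 and 14 counts and the stimulated ones 158 and 171, or 26.3 and 24.2 against 323 and 303 CPM. The unstimulated Padi4 KO libraries held 17 and 25 counts and the stimulated ones 388 and 302, or 19.2 and 18.1 against 345 and 277 CPM. No stimulated library of either genotype came near an unstimulated one. The rise was 3.62 on the log2 scale in WT (SE 0.21, adjusted p = 2.26e-65 by edgeR) and 4.06 in Padi4 KO (SE 0.17, adjusted p = 6.68e-123 by edgeR), or 12.3-fold and 16.7-fold. The difference between the genotypes was 0.44 (SE 0.36, 95% interval -0.27 to 1.15, adjusted p = 0.67 by edgeR).

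Zfp36l2 fell in both genotypes. Its CPM were 595 and 568 in unstimulated WT, 133 and 170 in WT with R848, 453 and 476 in unstimulated Padi4 KO and 147 and 166 in Padi4 KO with R848, from 65 to 657 counts. Every stimulated library lay below every unstimulated one. The log2 fold change was -1.93 in WT (SE 0.13, adjusted p = 7.92e-50 by edgeR), 3.81-fold lower, and -1.58 in Padi4 KO (SE 0.10, adjusted p = 1.18e-49 by edgeR), 2.98-fold lower. The difference was 0.36 (SE 0.17, adjusted p = 0.34 by edgeR).

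Zfp36, the TTP gene and the most abundant of the family, moved least of the 3 in WT. Its CPM were 1038 and 1144 in unstimulated WT and 884 and 941 with R848. The libraries did not overlap, and the log2 fold change was -0.25 (SE 0.085, adjusted p = 0.0138 by edgeR). This call was lost with DESeq2 (-0.18), with relative log expression factors (-0.18), with a model of the WT libraries alone (-0.13), without WT unstimulated replicate 2 (-0.18), without WT R848 replicate 1 (-0.073) or 2 (-0.20) and without Padi4 KO R848 replicate 1 or 2 (-0.16 each). With library totals Zfp36 was called at -0.56 in WT. In Padi4 KO the CPM were 1139 and 1178 without R848 and 651 and 653 with it, a log2 fold change of -0.83 (SE 0.077, adjusted p = 1.50e-25 by edgeR), or 1.78-fold lower.

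Rc3h1, which encodes Roquin-1, rose by a smaller factor. Its CPM were 51.0 and 56.9 in unstimulated WT and 120 and 84.9 with R848, and 41.8 and 44.2 in unstimulated Padi4 KO and 68.4 and 78.1 with R848. The groups did not overlap, and the log2 fold changes were 0.91 (SE 0.23, adjusted p = 0.000484 by edgeR) and 0.76 (SE 0.19, adjusted p = 0.000415 by edgeR). The Padi4 KO call was lost with DESeq2 (0.68, adjusted p = 0.11) and with scaling by library totals (0.38, adjusted p = 0.11).

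Tia1, the translational repressor, was counted 20 and 18 times in unstimulated WT but only 2 and 8 times with R848, or 30.9 and 31.1 against 4.08 and 14.2 CPM. Its log2 fold change of -1.69 (SE 0.48, adjusted p = 0.00238 by edgeR) became -0.99 (adjusted p = 0.20) without WT R848 replicate 1, which held the 2 counts. In Padi4 KO Tia1 had 25 and 26 counts against 16 and 18, and its log2 fold change of -0.55 (SE 0.33, 95% interval -1.19 to 0.089, adjusted p = 0.21 by edgeR) was not called. It passed with library totals (-0.93) and without WT R848 replicate 1 (-0.69) or 2 (-0.68). Khsrp went from 82.0 and 81.1 to 65.3 and 67.2 CPM in WT and from 115 and 108 to 80.0 and 96.5 in Padi4 KO. Its log2 fold change of -0.30 in WT (SE 0.23, adjusted p = 0.40 by edgeR) passed only with library totals (-0.60), and that of -0.33 in Padi4 KO passed (SE 0.15, adjusted p = 0.0789 by edgeR). The latter call was lost with DESeq2 (-0.42, adjusted p = 0.29), without Padi4 KO unstimulated replicate 1 (-0.30) or 2 (-0.38) and without Padi4 KO R848 replicate 1 (-0.35).

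Elavl1, which encodes the stabiliser HuR, was called in no comparison, except with library totals after R848 (0.52 for Padi4 KO against WT, adjusted p = 0.097 by edgeR). Its CPM were 49.5 and 58.7 in unstimulated WT, 69.4 and 47.8 in WT with R848, 56.5 and 58.0 in unstimulated Padi4 KO and 76.4 and 66.1 in Padi4 KO with R848. The WT groups overlapped, and the 95% interval of the log2 fold change ran from -0.41 to 0.62. In Padi4 KO it ran from -0.036 to 0.66.

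**Figure D2:**
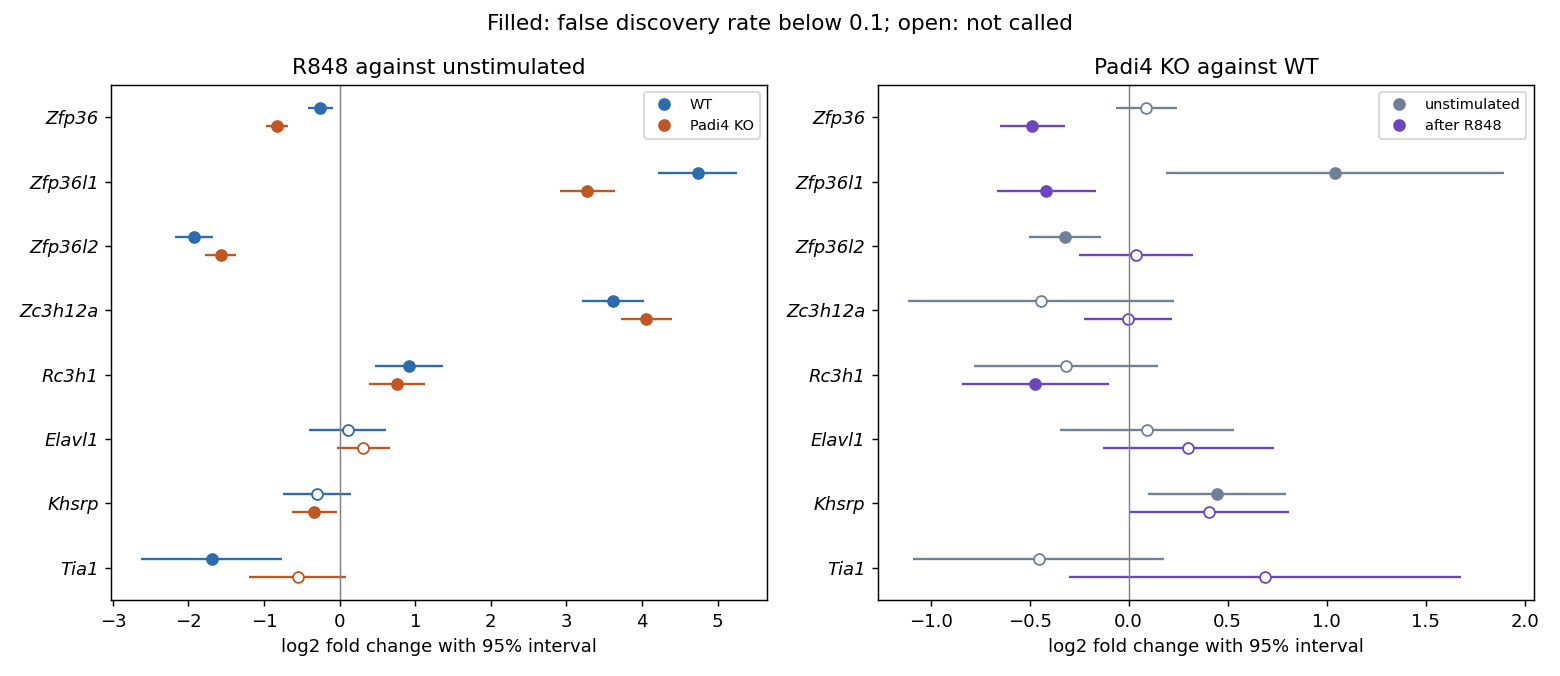
Log2 fold changes of the 8 regulators with 95% intervals from edgeR, R848 against unstimulated on the left and Padi4 KO against WT on the right. Filled points passed a false discovery rate of 0.1; Zfp36l1 and Zc3h12a lie furthest to the right on the left side, and Zfp36 after R848 lies left of zero on the right side.

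Added over the family, the 3 TTP-type genes summed to 544 and 574 CPM per kb in unstimulated WT and 438 and 478 with R848. In Padi4 KO they summed to 543 and 564 without R848 and 344 and 345 with it. Their composition changed more than their sum. Zfp36l1 made up 0.57% and 0.60% of the family in unstimulated WT and 19.2% and 19.3% with R848, and 1.25% and 1.20% against 20.0% and 18.4% in Padi4 KO. Zfp36l2 went from 31.0% and 28.0% to 8.57% and 10.1% in WT and from 23.6% and 23.9% to 12.1% and 13.7% in Padi4 KO. Zfp36 stayed between 67.9% and 75.1% in all 8 libraries. These shares are descriptions from transcript lengths and carry no test.

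**Figure D3:**
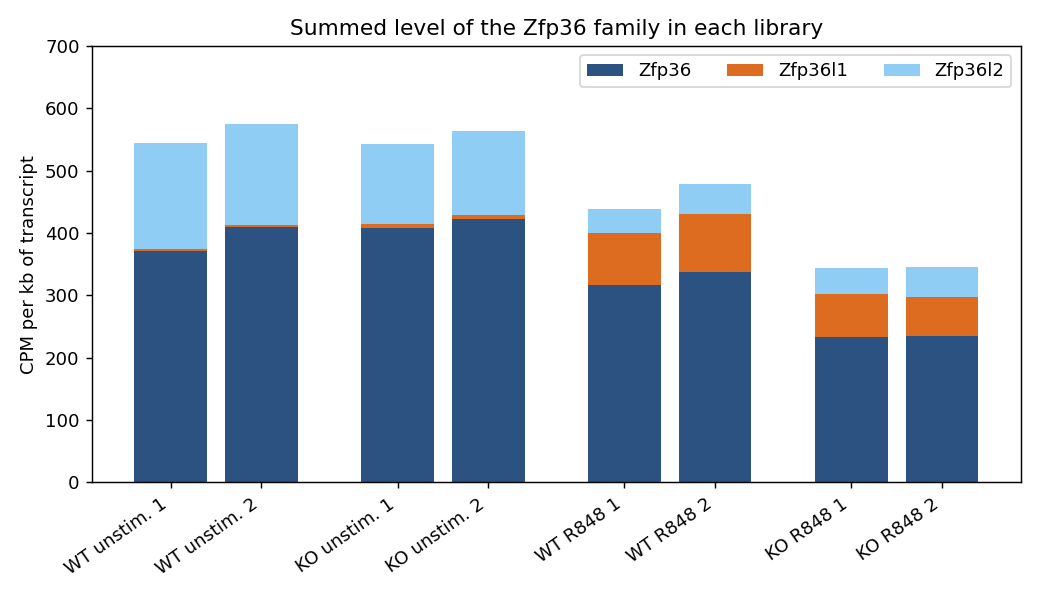
Summed level of Zfp36, Zfp36l1 and Zfp36l2 in CPM per kb of transcript, 1 bar per library and stacked by gene, on an axis from 0. The bars with R848 are shorter than those without, at 438 and 478 in WT and 344 and 345 in Padi4 KO, and Zfp36l1 takes between 18.4% and 20.0% of each.

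The response to R848 differed between the genotypes for 2 of the 8 regulators, Zfp36 and Zfp36l1, both with a lower response in Padi4 KO. Among all genes tested 1.26% were called with a lower and 3.44% with a higher response in Padi4 KO, and 8.00% of genes with at least 10 counts in either direction. Zfp36 fell further in Padi4 KO, with a difference of -0.58 (SE 0.11, 95% interval -0.80 to -0.35, adjusted p = 9.85e-05 by edgeR). It was called in all 15 alternatives, between -0.89 and -0.51. Zfp36l1 rose less in Padi4 KO, with a difference of -1.46 (SE 0.45, 95% interval -2.33 to -0.58, adjusted p = 0.0395 by edgeR). That call was lost without WT unstimulated replicate 1 (-1.38, adjusted p = 0.25), without WT unstimulated replicate 2 (-1.53, adjusted p = 0.15) and without Padi4 KO unstimulated replicate 2 (-1.46, adjusted p = 0.16), and it rests on the 6 counts in each unstimulated WT library. The median of all genes with at least 10 counts was 0.18 for this difference and 0.023 with DESeq2, and relative to it the values were -0.75 for Zfp36 and -1.64 for Zfp36l1. The other scalings moved the balance of calls over all genes from 421 higher and 154 lower to 35 and 90 with DESeq2, 160 and 233 with relative log expression factors and 255 and 170 with library totals. The main scaling also depended on the set of libraries. With it the median of 0.18 became -0.068 and -0.059 without WT R848 replicate 1 and 2. It became -0.071 and -0.065 without Padi4 KO R848 replicate 1 and 2. For the other 6 regulators the difference was not called, with the widest interval for Tia1 (-0.029 to 2.31).

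Without stimulation, 2 regulators were called higher in Padi4 KO than in WT and 1 lower, where 9.54% of all genes were called higher and 14.4% lower. Among genes with at least 10 counts, as all 8 regulators had, 36.7% were called in either direction, so 3 of 8 is near the background. Zfp36l1 was higher by 1.04 on the log2 scale (SE 0.43, adjusted p = 0.0753 by edgeR) from 6 and 6 against 18 and 28 counts. Khsrp was higher by 0.44 (SE 0.18, adjusted p = 0.0602 by edgeR). Zfp36l2 was lower, at -0.32 (SE 0.094, adjusted p = 0.00529 by edgeR). None of the 3 was called by DESeq2 (1.11, 0.51 and -0.27), where 0 of the 8 regulators were called and 1 had an unadjusted p under 0.05. Without WT unstimulated replicate 1 edgeR also called 0 of the 8, with 1 at an unadjusted p under 0.05. Zfp36l1 and Khsrp each lost their call without any 1 of the 4 unstimulated libraries, at 0.96 to 1.12 and 0.42 to 0.51. Zfp36l2 lost it without WT unstimulated replicate 1 (-0.28), WT R848 replicate 2 (-0.17) or Padi4 KO R848 replicate 1 or 2 (-0.19 each), and with library totals (-0.033). Erythroid markers summed to 1056 to 1124 CPM in unstimulated Padi4 KO and at most 119 in unstimulated WT, and stromal markers to 596 to 749 against at most 251. Of 11 neutrophil markers 10 were called lower in unstimulated Padi4 KO and 0 higher, with a median log2 fold change of -0.56. The part of these markers in the values was not tested. Zfp36 was not called, at 1038 and 1144 CPM in WT and 1139 and 1178 in Padi4 KO (0.090, SE 0.078, adjusted p = 0.48 by edgeR). It became called, at 0.22 to 0.38, with library totals as scaling and without any 1 of the 4 R848 libraries. Scaling by library totals called 1901 genes higher and 562 lower in place of 1169 and 1767. With the main scaling the median log2 difference of genes with at least 10 counts was -0.16. It became -0.032 to -0.014 without any 1 of the 4 R848 libraries.

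After R848, 3 regulators were lower in Padi4 KO and none higher, where 7.84% of all genes were called lower and 9.44% higher, and 26.4% of genes with at least 10 counts in either direction. Zfp36 stood at 884 and 941 CPM in WT and 651 and 653 in Padi4 KO, a difference of -0.49 (SE 0.084, 95% interval -0.65 to -0.32, adjusted p = 3.13e-07 by edgeR). The groups did not overlap, and the call held in all 15 alternatives, between -0.67 and -0.27. Zfp36l1 was lower, at -0.41 (SE 0.13, adjusted p = 0.0113 by edgeR), at 251 and 276 against 206 and 190 CPM. This call was lost with DESeq2 (-0.51, adjusted p = 0.14) and with library totals (-0.20, adjusted p = 0.34). Rc3h1 was lower, at -0.47 (SE 0.19, adjusted p = 0.0802 by edgeR) and lost its call with DESeq2 (-0.58), with library totals (-0.26), without WT R848 replicate 1 (-0.36) and without Padi4 KO R848 replicate 1 (-0.49). Khsrp, at 0.41 (SE 0.21), was called only with library totals (0.62). Zc3h12a was at 323 and 303 CPM in WT and 345 and 277 in Padi4 KO, with a 95% interval of the log2 difference from -0.23 to 0.22. Erythroid markers summed to 1370 to 1392 CPM in Padi4 KO with R848 and at most 63.9 in WT with R848, and monocyte markers to 3571 to 3633 and 3363 to 3499. Of 11 neutrophil markers 9 were called lower in Padi4 KO with R848 and 0 higher, with a median log2 fold change of -0.62, beside -0.49 for Zfp36. Their part in these values was not tested. The calls over all genes were 1157 higher and 961 lower, but 387 and 621 with DESeq2, 990 and 1359 with relative log expression factors and 1869 and 417 with library totals. With the main scaling the median log2 difference of genes with at least 10 counts was -0.0030. It became -0.14 to -0.071 without any 1 of the R848 libraries.

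The genes whose log2 CPM moved most like a regulator over the 8 libraries were found by the root mean square difference after centring, among 6911 genes, for the 7 regulators called in a response. Elavl1 was called in neither and was not searched. Nearest to Zfp36l1 were Upp1 (0.18), Gpr132 (0.24) and Tnfrsf1b (0.24), and nearest to Zc3h12a were Sqstm1 (0.17), Adgb (0.21) and Irak3 (0.23). Zfp36l2 was nearest to Mvb12b (0.10), Serpinb10 (0.12) and Cd177 (0.13). Zfp36 was nearest to Tpst2 (0.10), Srsf6 (0.13) and Slk (0.14), and Rc3h1 to Golph3 (0.077), Mtmr6 (0.081) and Klf6 (0.085). Khsrp was nearest to Rpl27 (0.10), Dap3 (0.10) and Sympk (0.11), and Tia1 to Sumf1 (0.21), Med30 (0.22) and Plin3 (0.22). Over the 28 pairs of regulators the values ran from 0.35 (Elavl1 and Khsrp) to 2.81 (Zfp36l1 and Zfp36l2), with Zc3h12a and Zfp36l1 at 0.49. All these values share the same 8 libraries and their scaling.

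Among 21 tested genes of other proteins that bind AU-rich elements or stem-loops, 4 were called higher and 4 lower in WT, and 4 and 7 in Padi4 KO, with medians of -0.00015 and 0.094. DESeq2 called 5 and 8 of them. The shares of all genes tested were 13.5% higher and 16.0% lower in WT and 19.2% and 15.9% in Padi4 KO, and of genes with at least 10 counts 45.3% and 50.9% were called in either direction, for this list and those that follow. Of the 18 binding proteins with at least 10 counts, 8 and 10 were called. The difference of response was called for 0 of 21 by edgeR and by DESeq2, with 0 at an unadjusted p under 0.05. Of all genes tested 1.26% had a lower and 3.44% a higher response in Padi4 KO by edgeR, so few calls would stand in a list of this size. Among genes with at least 10 counts 8.00% were called. These shares apply to the lists that follow as well. N4bp1, an RNase related to Regnase-1, rose from 244 and 240 to 1282 and 1343 CPM in WT and from 158 and 183 to 1039 and 1133 in Padi4 KO. Its log2 fold changes were 2.44 (SE 0.10, adjusted p = 9.89e-125 by edgeR) and 2.65 (SE 0.093, adjusted p = 1.52e-174 by edgeR). Zc3h12c, a sister gene of Zc3h12a, was counted 0 and 1 times in unstimulated WT and 16 and 18 times with R848, and 1 and 4 against 41 and 40 times in Padi4 KO. Celf2, which binds GU-rich elements, fell, with log2 fold changes of -0.94 (SE 0.15) in WT and -0.59 (SE 0.13) in Padi4 KO. Celf2 was lower in unstimulated Padi4 KO than in WT, at -0.79 (SE 0.12, adjusted p = 9.71e-09 by edgeR). Ybx1, a cold-shock domain protein, fell as well, at -0.45 (SE 0.15) and -0.55 (SE 0.10). The WT call of Ybx1 was lost with DESeq2 (-0.38), with a model of the WT libraries alone (-0.33) and without WT R848 replicate 1 (-0.29) or 2 (-0.38). Without R848 Ybx1 was higher in Padi4 KO, at 0.44 (SE 0.12, adjusted p = 0.00154 by edgeR). In that comparison 8 of the 21 were called higher and 3 lower, where 9.54% and 14.4% of all genes were. DESeq2 called 5 of the 21. Of the 18 with at least 10 counts edgeR called 10, where 36.7% of all genes at that depth were called.

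Of 20 deadenylation factors tested, 3 were called higher and 5 lower in WT and 4 and 4 in Padi4 KO, with median log2 fold changes of -0.24 and 0.038. DESeq2 called 4 of them in each genotype. Of the 19 with at least 10 counts, edgeR called 8 in each. Btg2, an adaptor that couples RNA-binding proteins to CCR4-NOT, stood at 294 and 266 CPM in unstimulated WT and 982 and 842 with R848, and at 233 and 212 against 565 and 502 in Padi4 KO. It rose by 1.70 (SE 0.10) and 1.27 (SE 0.096), with a difference of -0.43 (SE 0.15, adjusted p = 0.0810 by edgeR), the only called difference of this list. The Btg2 difference lost its call without any 1 of the 4 unstimulated libraries, at -0.50 and -0.36 without WT replicate 1 and 2 and -0.38 and -0.51 without Padi4 KO replicate 1 and 2. After R848 Btg2 was lower in Padi4 KO, at -0.77 (SE 0.088, adjusted p = 3.00e-16 by edgeR), a call that held in all 15 alternatives between -0.97 and -0.55. Without R848 it was lower as well, at -0.34 (SE 0.12, adjusted p = 0.0198 by edgeR), a call lost in 8 of 15 alternatives. Tob1, another adaptor, fell, at -1.03 (SE 0.24) and -1.51 (SE 0.20). Pabpc4, a poly(A)-binding protein, fell, at -1.62 (SE 0.47) and -0.66 (SE 0.14), and was higher in Padi4 KO by 2.34 (SE 0.22) without R848 and 3.30 (SE 0.33) with it. Pabpc4 was counted 15 and 21 times in unstimulated WT and only 2 and 8 times in WT with R848. Its WT response lost the call without WT unstimulated replicate 2 (-1.28) and without WT R848 replicate 1 (-0.91). Erythroid markers were higher in the same Padi4 KO libraries, and their part was not tested.

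Of 20 decapping and 5′-3′ decay factors, 3 were called higher and 4 lower in WT and 6 and 2 in Padi4 KO, with medians of -0.11 and 0.064. DESeq2 called 4 and 3 of them. Of the 16 with at least 10 counts, edgeR called 6 and 8. The RNA helicase Ddx6 rose by 0.78 (SE 0.10) and 0.74 (SE 0.087) and its partner Lsm14a by 0.81 (SE 0.16) and 0.95 (SE 0.13). With library totals Ddx6 was called at 0.47 and 0.36 and Lsm14a at 0.51 and 0.57. Lsm6, a subunit of the Lsm ring that activates decapping, fell in WT, at -2.08 (SE 0.53), and stood at -0.52 (SE 0.32, adjusted p = 0.23 by edgeR) in Padi4 KO. It was counted 17 and 18 times in unstimulated WT and 4 and 3 times in WT with R848. The exonuclease Xrn1 stood at -0.83 (SE 0.47, adjusted p = 0.21 by edgeR) in WT and fell in Padi4 KO, at -1.58 (SE 0.36). Xrn1 was counted 10 and 4 times in WT with R848 and 10 and 10 times in Padi4 KO with R848. The difference of response was not called for Lsm6 (1.56, SE 0.64, adjusted p = 0.20 by edgeR) or Xrn1 (-0.76, SE 0.62, adjusted p = 0.67 by edgeR). That difference was called for 0 of the 20 factors by edgeR and by DESeq2, with 3 at an unadjusted p under 0.05 by edgeR. Of all genes 1.26% were called lower and 3.44% higher. Of 17 exosome and Ski complex genes, 1 was called higher and 2 lower in WT and 2 and 2 in Padi4 KO, with medians of -0.10 and -0.35. DESeq2 called 0 of the 17 in WT, with 0 at an unadjusted p under 0.05, and 1 in Padi4 KO. Of the 10 with at least 10 counts, edgeR called 1 and 3. Hbs1l, a ribosome rescue factor, stood at 0.82 (SE 0.36, adjusted p = 0.0805 by edgeR) in WT and 0.83 (SE 0.24, adjusted p = 0.00241 by edgeR) in Padi4 KO. Both calls were lost with DESeq2 (0.91 and 0.76) and with library totals (0.51 and 0.46). The WT call of Hbs1l was also lost without WT unstimulated replicate 1 (0.91) or 2 (0.74) or WT R848 replicate 1 (0.31), and the Padi4 KO call without Padi4 KO R848 replicate 1 (0.52). The core subunit Exosc5 stood at -0.88 (SE 0.70, adjusted p = 0.41 by edgeR) in WT and fell in Padi4 KO, at -1.57 (SE 0.41). It was counted 7 and 6 times in unstimulated WT and 1 and 5 times in WT with R848. In Padi4 KO with R848 it was counted 6 and 9 times. The helicase Skiv2l stood at 0.25 (SE 0.18, adjusted p = 0.36 by edgeR) in WT and at 0.38 (SE 0.15, adjusted p = 0.0344 by edgeR) in Padi4 KO. The latter call was lost in 8 of 16 alternatives, DESeq2 (0.30) included, and Skiv2l stood at 0.0040 with library totals and 0.088 without Padi4 KO R848 replicate 2. The difference of response was not called for Exosc5 (-0.68, SE 0.88, adjusted p = 0.83 by edgeR) or Skiv2l (0.13, SE 0.23, adjusted p = 0.90 by edgeR). Of the 17 genes 0 had a called difference by edgeR and by DESeq2, with 1 at an unadjusted p under 0.05 by edgeR.

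The genes that act on TTP included large changes in both directions. Of 16 kinases, phosphatases and 14-3-3 proteins tested, 7 were called higher and 1 lower in WT and 7 and 2 in Padi4 KO, with medians of 0.14 in both. DESeq2 called 8 and 7 of the 16 in the responses. Of the 15 with at least 10 counts, edgeR called 8 in each response and 8 after R848, where 26.4% of all genes at that depth were called. After R848 7 of the 16 were lower in Padi4 KO than in WT and 1 was higher, where 7.84% and 9.44% of all genes were, and DESeq2 called 4 of the 16 in all and library totals 5. The median log2 difference of the 16 was -0.20, beside -0.62 for the neutrophil markers, of which 9 of 11 were called lower. Their part was not tested. Mapkapk2, the kinase that phosphorylates TTP, stood at 238 and 238 CPM in unstimulated WT and 2125 and 1978 with R848, and at 194 and 201 against 1694 and 1647 in Padi4 KO. It rose by 3.11 (SE 0.097) and 3.08 (SE 0.088) on the log2 scale, and the difference was -0.030 (SE 0.14). After R848 it was lower in Padi4 KO, at -0.30 (SE 0.073, adjusted p = 0.000872 by edgeR), but not with library totals (-0.078). Dusp1, the phosphatase that switches p38 off, fell from 721 and 735 to 208 and 198 CPM in WT and from 735 and 753 to 116 and 124 in Padi4 KO. Its log2 fold changes were -1.84 (SE 0.12) and -2.63 (SE 0.10), with a difference of -0.79 (SE 0.17, adjusted p = 0.000297 by edgeR). Ywhag, a 14-3-3 protein, rose by 1.89 (SE 0.14) and 1.47 (SE 0.11).

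Most of the mRNAs that these regulators are known to act on were called higher with R848. Of 27 tested target transcripts, 18 were called higher and 4 lower in WT and 19 and 5 in Padi4 KO, where 13.5% and 16.0%, and 19.2% and 15.9%, of all genes were. Il6, Il10 and Il12b had no count in any unstimulated library, and with each set at the bound given by 3 counts per library the list medians were 2.25 and 1.95. For the 24 targets counted in every group the medians were 2.24 and 1.78. The difference of response was lower in Padi4 KO for 9 of the 27 (Il1b, Cxcl2, Dusp1, Fos, Nfkbiz, Mcl1, Socs3, Plaur and Bcl3) and higher for Nfkbia. Its median over the 24 targets was -0.71, where that of all genes with at least 10 counts was 0.18. Of all genes, 1.26% were called with a lower and 3.44% with a higher response. After R848, 15 of the 27 were lower in Padi4 KO and 1 higher, where 7.84% and 9.44% of all genes were. DESeq2 called 9 of the 27 for the difference and 16 after R848. Of the 23 targets with at least 10 counts, edgeR called 21 in each response, 10 for the difference and 16 after R848, where 45.3% (WT), 50.9% (Padi4 KO), 8.00% and 26.4% of all genes at that depth were called. The median log2 difference of the 27 after R848 was -0.60, and 9 of 11 neutrophil markers were called lower in the same comparison with a median of -0.62. For the difference of response 3 of the 11 markers were called higher and 0 lower, with a median of 0.13. The part of the neutrophil markers in the values of the targets was not tested. The nonamer was present in the 3′ UTR of 9 of the 30 listed targets, a list written around mRNAs known for such elements, against 7.19% of 3′ UTRs of all genes. The count depends on the transcript chosen, which for Vegfa had a 3′ UTR of only 27 bases.

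Tnf, the founding target of TTP, stood at 30.9 and 41.4 CPM in unstimulated WT and 951 and 949 with R848, and at 21.5 and 17.4 against 728 and 621 in Padi4 KO. Its log2 fold changes were 4.72 (SE 0.15) and 5.14 (SE 0.15), and the difference of 0.42 (SE 0.31, adjusted p = 0.62 by edgeR) was not called. Tnf was lower in Padi4 KO both without R848, at -0.91 (SE 0.30, adjusted p = 0.0207 by edgeR), and with it, at -0.49 (SE 0.086, adjusted p = 3.68e-07 by edgeR). The call without R848 was lost with library totals (-0.63) and without unstimulated replicate 2 of WT (-0.70) or of Padi4 KO (-0.73). The chemokine Ccl3 rose by 7.37 (SE 0.20) and 7.69 (SE 0.19), with a difference of 0.33 (SE 0.61, adjusted p = 0.92 by edgeR) that was not called. It was lower in Padi4 KO after R848, at -0.70 (SE 0.082). Its rises rest on 4 and 5 counts in unstimulated WT and 4 and 4 in unstimulated Padi4 KO. Il1b, which encodes interleukin-1β, stood at 83.5 and 81.1 CPM in unstimulated WT and 5695 and 4819 with R848, and at 286 and 255 against 3155 and 2853 in Padi4 KO. Its rise of 5.99 (SE 0.11) in WT and 3.48 (SE 0.082) in Padi4 KO differed by -2.51 (SE 0.15, adjusted p = 4.53e-57 by edgeR), and it was already higher in unstimulated Padi4 KO by 1.70 (SE 0.14). The neutrophil chemokine Cxcl2 went from 47.9 and 65.6 to 810 and 554 CPM in WT and from 67.8 and 49.3 to 184 and 164 in Padi4 KO, a difference of -1.97 (SE 0.24, adjusted p = 1.86e-13 by edgeR). After R848 Cxcl2 was lower in Padi4 KO, at -1.96 (SE 0.11). Fos, a transcription factor subunit, went from 772 and 812 to 149 and 142 CPM in WT and from 1504 and 1412 to 16.0 and 14.7 in Padi4 KO, a difference of -4.11 (SE 0.24, adjusted p = 5.73e-62 by edgeR). Fos was higher in Padi4 KO without R848, at 0.88 (SE 0.081), and lower with it, at -3.23 (SE 0.23). Zfp36 and these targets were measured in the same libraries, and mRNA levels do not measure decay rates.

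**Figure D4:**
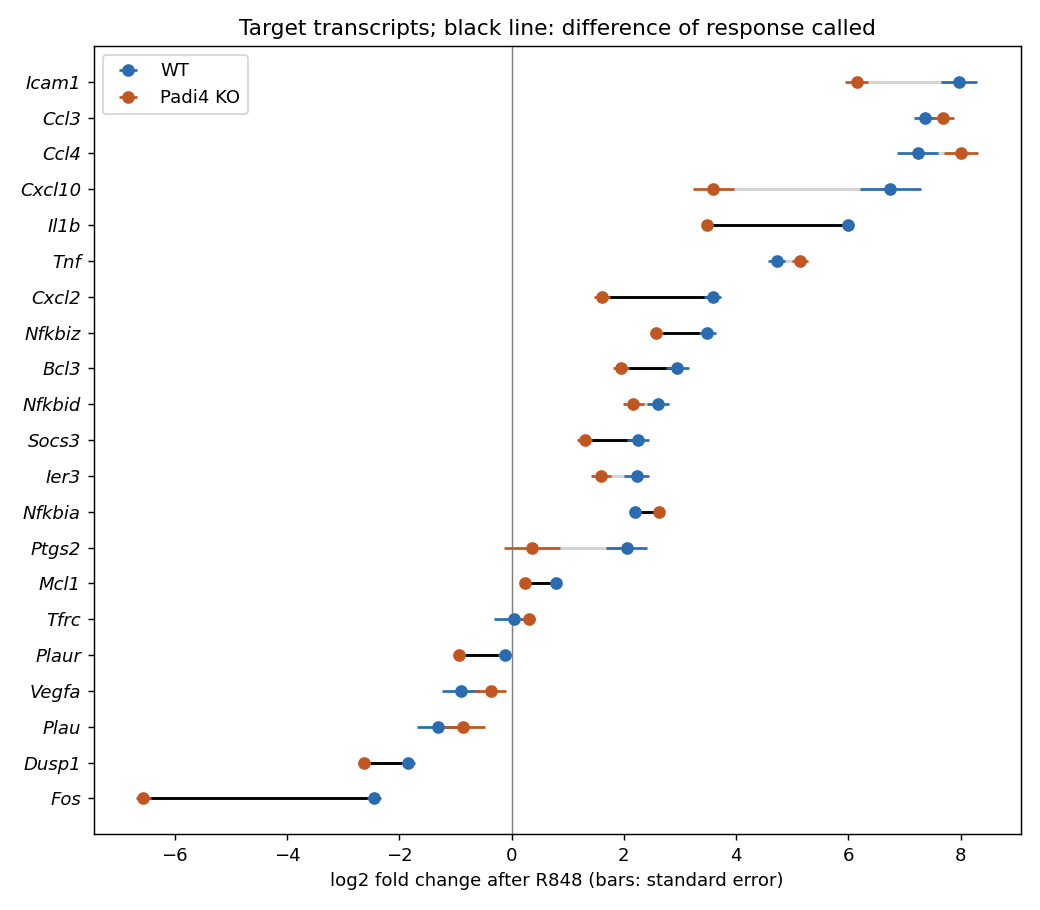
Log2 fold change after R848 of 21 target transcripts with at least 10 counts per library on average and counts in every group, WT in blue and Padi4 KO in orange, with bars of 1 standard error. A black line joins the genotypes where the difference of response was called, as for Fos (-2.45 in WT and -6.55 in Padi4 KO) and Il1b (5.99 and 3.48).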

How the data were processed

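Per the labels and the study's methods, the authors prepared libraries with a TruSeq RNA kit and counted reads on genes; their processing notes name cutadapt 1.16, FastQC 0.11.7, STAR 2.5.3a and HTSeq 0.6.1p1. The deposited values are raw counts per gene symbol, not normalized. The annotation and strand setting are not given in the sources used here. The summary lines (10.6% to 13.0% of reads) were left out.

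Genes counted at least 1 time in 2 or more libraries were tested with edgeR 4.0.16 (R 4.3.3), using TMM factors, 1 mean per group, robust quasi-likelihood fits and contrasts of means, with Benjamini-Hochberg adjustment over 12254 genes. Alternatives were DESeq2 1.42.0, other scalings, other filters, a replicate block, separate models, a stricter rate of 0.05 and leaving out each library. The scripts were tested on simulated data. Replicates differed by more than counting noise (chi-square per degree of freedom 1.05 to 1.67). Counting error alone limits genes of few counts.

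The 8 regulators and all lists were chosen with earlier results of these data known. Named genes were the regulators and, from each list, up to 3 genes with the smallest p in each response and in the difference, among called genes with at least 10 counts on average. Targets with a called difference are listed by name. Per-kb levels, positions and 3′ UTRs came from GENCODE M21 (GRCm38), which need not be the annotation used for counting.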

Additional observations from a re-analysis of the deposited data

Results flagged for a closer look

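The response to R848 differed between WT and Padi4 KO neutrophils by an interaction test in edgeR for 2 of the 8 regulators, where 1.26% of all genes had a lower and 3.44% a higher response in Padi4 KO, and 8.00% of genes with at least 10 counts were called. The difference for Zfp36 was -0.58 on the log2 scale, and the 4 groups did not overlap in CPM except without stimulation, where WT (1038 and 1144) and Padi4 KO (1139 and 1178) did. The difference for Zfp36l1 was -1.46, with 2 libraries per group, and rested on 6 counts in each unstimulated WT library. Its call was lost without WT unstimulated replicate 1 or 2 or Padi4 KO unstimulated replicate 2 (adjusted p = 0.15 to 0.25 by edgeR). No cause was tested for either.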

How the results depend on the processing

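Zfp36l1, Zfp36l2 and Zc3h12a kept their R848 calls in both genotypes under all 16 alternatives. The replicate numbers did not pair the libraries (correlations of deviations -0.020 to 0.020), and with a replicate block 6, 6, 2, 3 and 3 regulators were called in the WT response, the Padi4 KO response, the difference, without R848 and after R848, as without it. DESeq2 called 5 and 4 regulators in the WT and Padi4 KO responses, 0 regulators without R848 (1 at an unadjusted p under 0.05) and 1 after R848, and a rate of 0.05 left 1 without R848. Leaving out 1 library gave 4 to 6 regulators for the WT response (4 without WT R848 replicate 1), 5 to 7 for the Padi4 KO response, 1 to 2 for the difference, 0 to 4 without R848 and 2 to 3 after R848. Signs turned only for values that were not called. With library totals Elavl1 stood at -0.20 and -0.064 in the WT and Padi4 KO responses and Zc3h12a at 0.21 after R848. After R848 Zfp36l2 was -0.0598 with DESeq2 and -0.063 with relative log expression factors, and Zc3h12a was 0.0051 with the filterByExpr filter. Leaving out 1 library gave ranges of -0.034 to 0.46 (Elavl1, WT response), -0.075 to 0.39 (Zfp36l2, difference), -0.28 to 0.33 (Elavl1, difference), -0.031 to 0.24 (Elavl1, without R848), and after R848 -0.26 to 0.16 (Zfp36l2), -0.28 to 0.050 (Zc3h12a), -0.027 to 1.80 (Tia1) and -0.039 to 0.43 (Elavl1). Over all genes, calls fell from 3620 to 2264 (WT response), 4298 to 2121 (Padi4 KO response), 575 to 125 (difference), 2936 to 1061 (without R848) and 2118 to 1008 (after R848) with DESeq2. The cause of these shifts was not tested. Low counts, such as 2 for Tia1 in 1 library, limit what could be detected.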
